A study of Mus musculus with 8 samples.

Results

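Glycolysis and the response to low oxygen were followed through 38 mouse genes, which were listed by name and function. No measured value enters the rule, although results of these data were known when the list was made. They are 2 glucose transporters, 9 enzymes of the upper and 6 of the lower part of glycolysis, 2 bifunctional regulators of phosphofructokinase, 3 genes of pyruvate and lactate handling, 4 genes of the hypoxia-inducible factor (HIF) system and 12 genes known to respond to hypoxia. Of the 20205 genes with a value in every sample, these 38 are described here. Of them, 32 were tested together with all 10287 genes that passed a limit on low values, 2 (Ankrd37 and Car9) were listed at 0 in both samples of at least 1 condition, and 4 (Slc2a3, Aldoc, Slc16a3 and Epas1) stayed below the limit.

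The values come from RNA-Seq of NIH3T3 cells, an established line of mouse embryonic fibroblasts, in 4 conditions of 2 samples each. All cells carried a pcDNA3.1 (Zeo+) plasmid and had been selected with Zeocin: the vector was empty in Control and Hh-CM (NIH3T3-pc3.1) and held the Esrrb expression cassette in Esrrb and Esrrb+Hh-CM (NIH3T3-Esrrb). Esrrb is an orphan nuclear receptor of the estrogen-related family. Hh-CM was collected from HEK293 cells that secrete the Shh (Sonic hedgehog) N-terminal fragment from a transgene and was given at 1% for 48 h, and cells not given it received equally diluted medium of HEK293 cells that lack this transgene. Treatment began at confluence. Each plasmid line was a pool of independent transfections, the cells grew in phenol-red free DMEM with newborn calf serum, and the study's methods call the 2 samples of a condition biological replicates without saying whether they were grown as separate cultures, so that p-values measure only the spread between these samples.

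Values are FPKM, sequenced fragments divided by transcript length and by the number mapped in the sample, so that levels of different genes can be set side by side. The relative depth of the samples, read from the commonest ratio of their low values, ranged from 0.743 to 1.54 times that of Control 1. Gli1, the direct read-out of hedgehog signaling, was at 0.0217 and 0.0308 FPKM in Control, 26.8 and 28.1 in Hh-CM, 0.106 and 0.0372 in Esrrb, and 34.5 and 34.8 in Esrrb+Hh-CM. The vector could not be checked in the same way, because Esrrb itself was listed at 0 in all 4 libraries labelled Esrrb or Esrrb+Hh-CM, as in both Control libraries, and at 0.0281 and 0.0203 FPKM in Hh-CM. In these tables, every direction that involves a library labelled Esrrb therefore rests on its label. The study also examined Esrrb protein by Western blot, which is not analysed here. All 8 fibroblast markers examined were at 1 FPKM or more in every sample, with a summed level of 5479 to 5523 FPKM in Control, 5935 to 6385 in Hh-CM, 5717 to 5821 in Esrrb and 6216 to 6305 in Esrrb+Hh-CM. Of 6 epithelial markers, 4 were at 0 in all samples and none exceeded 0.0904 FPKM. The 5 endothelial markers summed to 0.111 to 0.157 FPKM in Control, 1.19 to 1.43 in Hh-CM, 0.0811 to 0.0881 in Esrrb and 1.23 to 1.67 in Esrrb+Hh-CM. Tek gave most of the sum except in Esrrb, where Pecam1 (0.0482 and 0.0422) lay above Tek (0.0330 and 0.0289). Kdr was at 0 throughout. The leukocyte markers summed to 0.999 to 1.87, 2.09 to 2.81, 1.42 to 1.92 and 1.64 to 2.09 FPKM in the same order, with Cd3e at 0. The endothelial sum moved with Hh-CM, and its part in the results was not tested.

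Glycolysis splits glucose into pyruvate in the cytosol and yields ATP without oxygen, and lactate dehydrogenase lets it run on by turning pyruvate into lactate. When oxygen is short, the prolyl hydroxylases encoded by the Egln genes no longer mark HIF alpha subunits for destruction, and HIF then binds hypoxia response elements, with the core ACGTG or GCGTG, near its target genes, among them most glycolytic enzymes, Vegfa and Bnip3. In most cells this programme is controlled mainly by the stability of the HIF protein, which an mRNA level does not show.

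The promoters of Pfkfb3, the gene with the largest differences, and of Ero1l, the response gene with the largest decrease, are shown here with the cores ACGTG and GCGTG in capitals on either strand (on the opposite strand they read CACGT and CACGC). They are RefSeq sequences on build GRCm38.p6 and run from 250 bases before to 50 bases after an annotated start, both genes lying on the minus strand. The expression files use mm9, so these coordinates cannot be set against theirs. RefSeq lists Ero1l as Ero1a.
Pfkfb3, chr2:11502041-11502340, minus strand: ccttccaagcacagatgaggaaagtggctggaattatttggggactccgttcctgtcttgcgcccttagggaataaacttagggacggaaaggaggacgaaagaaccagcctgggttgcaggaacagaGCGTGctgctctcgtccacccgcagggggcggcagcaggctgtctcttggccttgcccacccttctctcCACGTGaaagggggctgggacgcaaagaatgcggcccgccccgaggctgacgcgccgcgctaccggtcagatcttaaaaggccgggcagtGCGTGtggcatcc
Pfkfb3, chr2:11553880-11554179, minus strand: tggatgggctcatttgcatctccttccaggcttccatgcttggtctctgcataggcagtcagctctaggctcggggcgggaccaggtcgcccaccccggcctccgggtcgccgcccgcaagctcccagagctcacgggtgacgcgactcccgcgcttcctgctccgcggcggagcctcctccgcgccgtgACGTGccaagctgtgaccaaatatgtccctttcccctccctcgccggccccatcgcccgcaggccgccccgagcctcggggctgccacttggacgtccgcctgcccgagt
Ero1l, chr14:45318523-45318822, minus strand: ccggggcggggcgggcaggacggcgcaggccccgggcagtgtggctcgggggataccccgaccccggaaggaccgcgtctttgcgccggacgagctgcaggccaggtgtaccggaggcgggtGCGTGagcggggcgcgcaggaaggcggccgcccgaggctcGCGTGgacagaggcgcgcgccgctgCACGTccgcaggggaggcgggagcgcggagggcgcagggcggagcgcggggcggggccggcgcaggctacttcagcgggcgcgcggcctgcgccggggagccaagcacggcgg
The first Pfkfb3 promoter held 4 cores, of which 2 overlap on opposite strands in the palindrome CACGTG, which is also the E-box bound by other factors. The second held 1 and that of Ero1l 3. Among the 38 genes, 34 matched the promoter table, with 52 promoters in all. ACGTG was found in 53.8% of these and in 19.6% of all 32851 promoters of the table, GCGTG in 51.9% and 32.4%, and either core in 40 of 52 (76.9%) and 43.8%. The promoters of the members also had a higher GC content, with a median of 62.2% against 52.7%. Either core was present in at least 1 promoter of 31 of the 34 genes, including both PFKFB genes and all 10 matched response genes. No share per gene over all genes is given for comparison, and a gene with several promoters has more places for a core. The response genes were listed because they are known to respond to hypoxia. Some windows of the same gene overlap, as for Aldoa and Eno1, so that a core can be counted in more than 1 promoter. The estrogen-related receptor element TCAAGGTCA was in 0 of the 52 promoters and 0.423% of all, and the Gli element GACCACCCA in 0 of the 52 and 0.253% of all, both searched on either strand with no mismatch. These are matches of letters in a fixed window and not measured binding. Slc2a3, Epas1, Bnip3l and Ndrg1 were not matched.

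Differences between conditions were tested with limma on log2(FPKM + 0.1), fitted over all 8 samples and all 10287 genes, and p-values were adjusted by the Benjamini-Hochberg method. On this scale the change of a low gene is understated. A gene is said to rise or fall, or to pass, when its adjusted p is below 0.05, and to be differentially expressed when its log2 difference is also at least 1 in size. Comparisons that share the Control, Hh-CM or Esrrb samples are not independent of each other.

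Hh-CM alone was compared with Control to see how hedgehog activation acts on these genes. In Hh-CM, 2 of the 32 genes rose, against 10.5% of all genes, and 8 fell, against 7.52% of all genes. The risers were Pfkfb3 and Ndrg1, and the genes that fell were the enzymes Hk2, Gpi1, Aldoa and Gapdh, the HIF subunit gene Hif1a and the response genes Ddit4, Adm and Ero1l. The median log2 difference of the 32 genes was -0.16, and that of all genes 0.04. In the libraries labelled Esrrb, compared with Control, Pfkfb3 and Hif1a rose (2 of 32, against 10.2% of all genes) and 9 genes fell (against 6.15%), namely Hk1, Hk2, Gpi1, Aldoa, Gapdh, Pgk1, Ddit4, Mxi1 and Ero1l. The median was -0.15 and that of all genes 0.05.

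With both the Esrrb label and Hh-CM, compared with Control, 3 genes rose (against 23% of all genes) and 13 fell (against 12%). Pfkfb3, Vegfa and Ndrg1 rose. The genes that fell were Hk1, Hk2, Gpi1, Aldoa and Eno2 among the enzymes, Hif1a and Egln3 of the HIF system, and Bnip3, Bnip3l, Ddit4, Mxi1, Kdm3a and Ero1l among the response genes. The median was -0.12, with 0.08 for all genes. The same libraries compared with Hh-CM had 6 genes higher (against 12.4%), namely Pfkl, Pfkfb3, Gapdh, Ldha, Vegfa and Adm, and 3 lower (against 6.52%), namely Gpi1, Aldoa and Ero1l. Compared with the libraries labelled Esrrb, which gives the response to Hh-CM in that line, 6 were higher (against 13.9%), namely Pfkl, Pfkfb3, Gapdh, Pgk1, Vegfa and Ndrg1, and 5 lower (against 9.51%), namely Aldoa, Hif1a, Egln3, Kdm3a and Ero1l. The medians in these last comparisons were 0.02 and 0.01, with 0.05 and 0.04 for all genes.

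Pfkfb3 was the only member differentially expressed in any of the 5 comparisons, and it was so in each of them. The share of all genes past both thresholds was 2.77% in Hh-CM against Control, 1.48% in Esrrb against Control, 6.22% in Esrrb+Hh-CM against Control, 1.98% in Esrrb+Hh-CM against Hh-CM and 4.82% in Esrrb+Hh-CM against Esrrb. Aldoa, Pfkfb3 and Ero1l passed in all 5 comparisons, and 11 genes (Slc2a1, Pfkm, Pfkp, Tpi1, Pfkfb4, Pgam1, Eno1, Pkm2, Pdk1, Egln1 and Higd1a) in none. Neither these counts nor the next were made over all genes, so that they describe the members only. Of all 58 calls, including the difference in response described below, 28 held whichever single library was left out.

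The split between rises and falls depended on the scaling of the samples. When the samples were rescaled to equal medians, the median difference of all genes between Esrrb+Hh-CM and Control moved from 0.08 to -0.05, and the members that rose and fell became 2 and 14 in Hh-CM, 1 and 14 in Esrrb and 3 and 18 in Esrrb+Hh-CM, each against Control. Over all genes, the shares that rose and fell were then 8.73% and 10.1% in Hh-CM, 6.16% and 8.60% in Esrrb, and 13.8% and 20.5% in Esrrb+Hh-CM. Over all genes, 58.3% of the genes that passed were higher in Hh-CM than in Control, and 46.2% after rescaling. The corresponding shares were 62.5% and 41.7% in Esrrb against Control, 65.7% and 40.3% in Esrrb+Hh-CM against Control, 65.6% and 39.9% against Hh-CM, and 59.4% and 44.2% against Esrrb. Among the members, Esrrb+Hh-CM had 4 higher and 5 lower than Hh-CM after rescaling (7.69% and 11.6% of all genes), and 5 higher and 7 lower than Esrrb (10.5% and 13.3%). Of the 11 genes that otherwise passed in no comparison, Pgam1, Eno1 and Pdk1 fell in all 3 conditions against Control after rescaling, by 0.17 to 0.26 log2 units (limma adjusted p of at most 0.0446), Tpi1 fell in Esrrb (-0.32, adjusted p = 0.0474) and Egln1 in Esrrb+Hh-CM (-0.25, adjusted p = 0.0249).

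**Figure D1:**
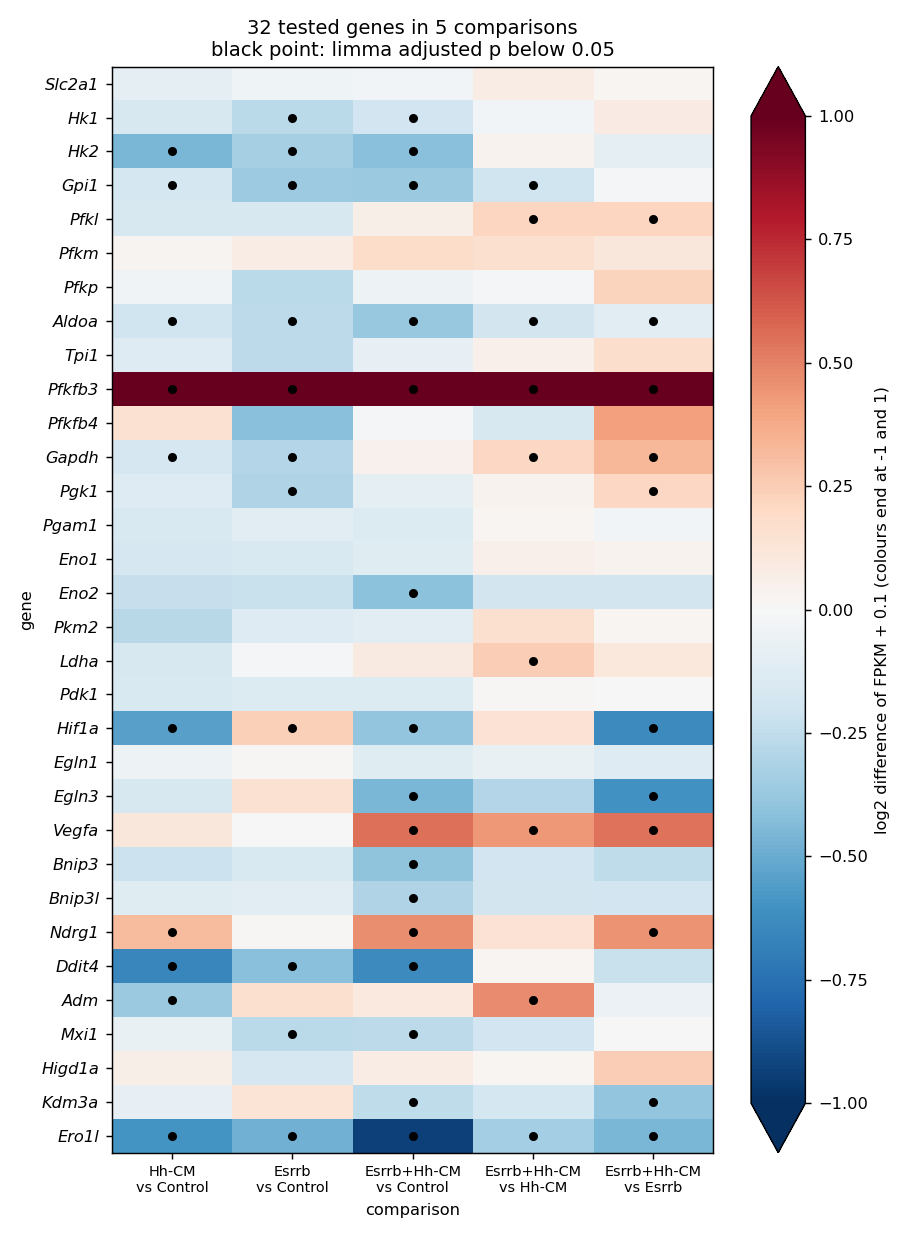
Log2 differences of the 32 tested genes (rows, by role) in the 5 comparisons (columns), on the log2(FPKM + 0.1) scale, with red for higher and blue for lower values in the first-named condition and colours ending at -1 and 1; a black point marks a limma adjusted p below 0.05. Pfkfb3 is past the end of the colour scale in every column, and Aldoa and Ero1l carry a point in all 5 columns with blue cells.

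The levels of the 32 genes spanned a wide range. Gapdh was highest, at 1505 to 1977 FPKM over the 8 samples with a median of 1755. Pgk1 (574 to 716), Aldoa (577 to 759), Ldha (559 to 692), Eno1 (514 to 592), Pkm2 (440 to 606), Tpi1 (437 to 545) and Pgam1 (415 to 477) followed, and the ranges of neighbours in this order overlapped. Gpi1 lay apart at 155 to 206 FPKM. Next came Hif1a (86.8 to 154), Bnip3 (93.1 to 131) and Ndrg1 (57.4 to 81.6), and then a broad middle of genes between 10.7 and 73.3 FPKM. Egln3 (6.77 to 10.9), Hk2 (6.48 to 9.29), Pfkp (5.09 to 7.03), Pfkfb3 (1.34 to 19.9) and Pfkfb4 (0.671 to 1.40) were lowest. The 2 samples of a condition differed by a median of 0.03 to 0.12 log2 units over the 32 genes, most in Esrrb+Hh-CM, and by 0.08 to 0.10 over all genes.

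Glucose enters these cells through facilitative transporters. Slc2a1, which encodes the widespread transporter GLUT1, lay between 58.1 and 65.7 FPKM over the 8 samples, and no comparison passed. Slc2a3, which encodes GLUT3, did not exceed 0.195 FPKM in any sample.

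The largest differences among the 38 genes were those of Pfkfb3, which encodes a kinase that makes the sugar bisphosphate that most strongly activates phosphofructokinase. It lay at 1.37 and 1.35 FPKM in Control, 6.44 and 7.45 in Hh-CM, 4.90 and 4.92 in Esrrb, and 19.9 and 18.9 in Esrrb+Hh-CM. No sample of any condition overlapped with those of another, and the order from Control through Esrrb and Hh-CM to Esrrb+Hh-CM was the same for both samples of each. Against Control, the log2 difference in limma was 2.27 in Hh-CM (4.82-fold, SE 0.085, adjusted p = 7.83e-05), 1.78 in Esrrb (3.44-fold, adjusted p = 0.000337) and 3.74 in Esrrb+Hh-CM (13.4-fold, adjusted p = 1.03e-05). Hh-CM thus gave a 4.82-fold difference in the line with the empty vector and a 3.89-fold difference in the line labelled Esrrb (log2 1.96, adjusted p = 7.17e-05). The difference between these responses was -0.31 log2 units (SE 0.12, adjusted p = 0.261), and turned to 0.0364 with a pseudocount of 1. Esrrb+Hh-CM was 2.77-fold above Hh-CM (log2 1.47, adjusted p = 0.00055). All 5 calls held without any single library, with adjusted p of at most 0.00586.

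In the annotation used here Pfkfb3 lies on chromosome 2 of mm9 at 11393057 to 11423728 on the minus strand, but its expression value belongs to a longer row of 82499 bases, from 11393058 to 11475556. The overlap is 0.372 of the combined length of this row and the annotated gene of 30672 bases, and the row is close in length to the RefSeq gene on GRCm38.p6 (82642 bases). The deposited lower and upper bounds of the estimate ran from 1.05 to 1.69 FPKM over the 2 Control samples, from 5.81 to 8.06 in Hh-CM and from 17.5 to 21.0 in Esrrb+Hh-CM, without overlap. In Esrrb they were 4.22 to 5.60 in the first sample and 3.95 to 14.0 in the second, which reaches across those of Hh-CM. Pfkfb4, which encodes another isoenzyme of this family and is strongly inducible by hypoxia in many cells, stayed between 0.671 and 1.40 FPKM. No comparison passed for it, and its 2 samples differed by up to 0.59 log2 units.

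**Figure D2:**
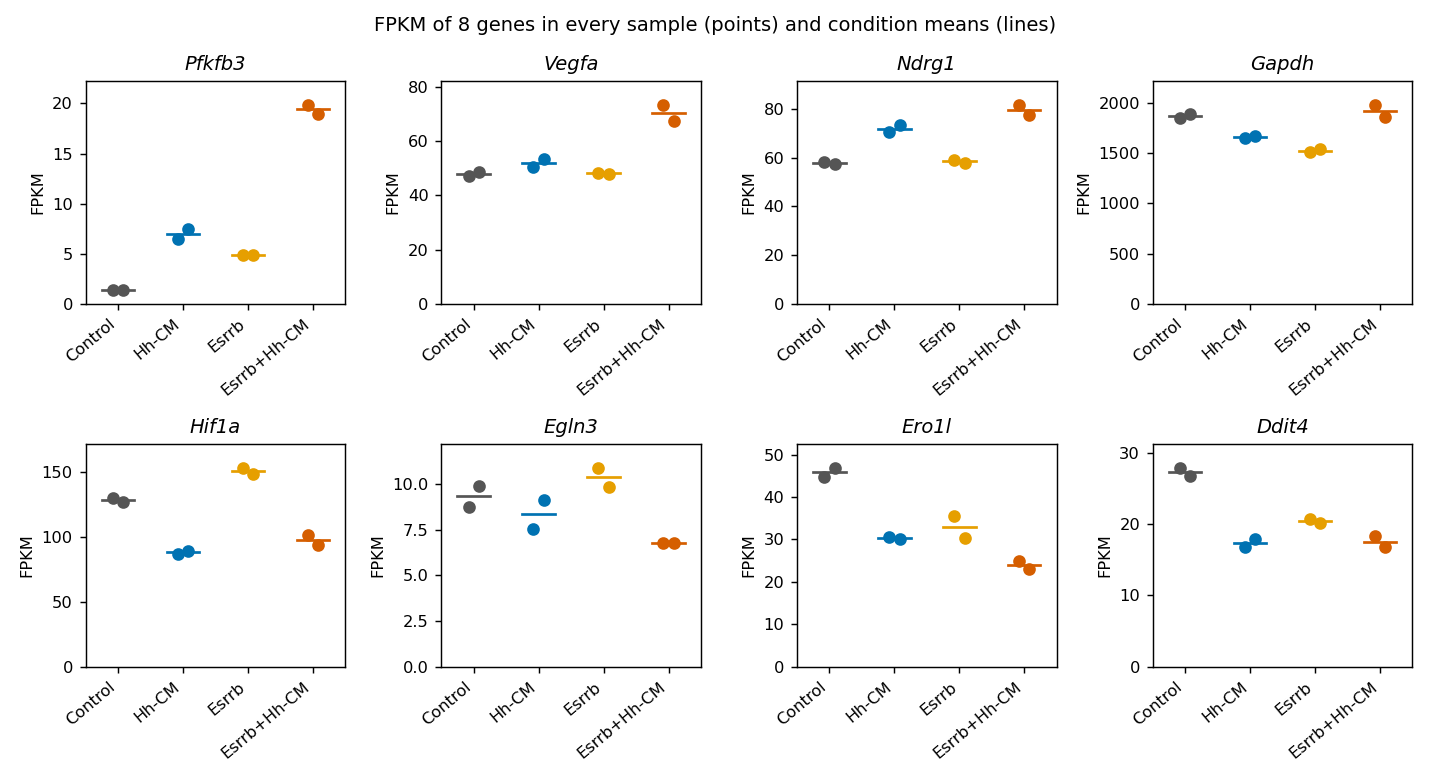
FPKM (vertical axes, starting at 0) of 8 genes in each of the 2 samples of the 4 conditions (points), with the mean as a line. Pfkfb3 rises from 1.37 and 1.35 in Control to 19.9 and 18.9 in Esrrb+Hh-CM without overlap between conditions, while Hif1a is lower in both conditions with Hh-CM and Ero1l is highest in Control.

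Of the 14 enzymes of glycolysis that could be tested, none rose against Control. In Hh-CM 4 fell (7.52% of all genes) and in the libraries labelled Esrrb 6 fell (6.15%), with median log2 differences of -0.16 and -0.26. The estimates of 13 of the 14 lay below 0 in each, as did those of 42.9% and 40.4% of all genes. In Esrrb+Hh-CM 5 fell (12% of all genes) and the median was -0.12. With rescaled samples, 8, 10 and 8 enzymes fell, and 10.1%, 8.60% and 20.5% of all genes. Summed over the 14 enzymes, the level was 5874 ± 67.6 FPKM (SD, n = 2) in Control and 5214 ± 82.7 in Hh-CM, while it was 4977 ± 8.61 in Esrrb and 5495 ± 296 in Esrrb+Hh-CM. The individual sums were 5827 and 5922, 5156 and 5273, 4984 and 4971, and 5705 and 5286, so that both samples of each other condition lay below both Control samples. Without Gapdh, whose values carry a limit given below, the means for 13 enzymes were 4010, 3555, 3456 and 3579 FPKM in that order. All samples of the other conditions again lay below both Control samples (3985 and 4036). With Gapdh, both Esrrb+Hh-CM samples lay above both Hh-CM samples. Without it, they lay on either side of them (3727 and 3431 against 3504 and 3606). The decreases from Control were small for a single enzyme. As a percentage of the Control mean, single values ranged from 71.5% to 109% in Hh-CM, from 77.6% to 106% in Esrrb and from 69.8% to 120% in Esrrb+Hh-CM.

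The first step is the phosphorylation of glucose by hexokinase. Hk2, the insulin- and hypoxia-inducible form, fell in Hh-CM (log2 -0.46, limma adjusted p = 0.00939), in Esrrb (-0.33, adjusted p = 0.0317) and in Esrrb+Hh-CM (-0.42, adjusted p = 0.00677), each against Control. The last of these held without any single library, the first did not without Control 2 or Hh-CM 1 (up to adjusted p = 0.0565), and the second was lost in 6 of 8 such fits, held only without either Esrrb+Hh-CM sample, and reached 0.126 without Control 2. Hk1, the constitutive form, fell in Esrrb (-0.27, adjusted p = 0.0161) and Esrrb+Hh-CM (-0.19, adjusted p = 0.0233). Both calls were lost without either Control sample (up to 0.0832 and 0.112), the former also without Esrrb 2 and the latter without either Esrrb+Hh-CM sample.

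Gpi1, which encodes glucose-6-phosphate isomerase, fell in all 3 conditions against Control, by 0.17, 0.36 and 0.37 log2 units in Hh-CM, Esrrb and Esrrb+Hh-CM. Its limma adjusted p was 0.0201, 0.00243 and 0.000657, and the first call was lost without any of the Control or Hh-CM samples (up to 0.105). It was also lower in Esrrb+Hh-CM than in Hh-CM (-0.20, adjusted p = 0.0143), a call lost without either Hh-CM sample (up to 0.0721). Aldoa, which encodes the aldolase that splits the phosphorylated sugar, showed the same order, with -0.20 (adjusted p = 0.00813), -0.26 (0.00415) and -0.38 (0.000365) against Control in limma. The first was lost without Control 2 or Hh-CM 1 (up to 0.0513). Aldoa was also lower in Esrrb+Hh-CM than in Hh-CM (-0.18, adjusted p = 0.0122) and than in Esrrb (-0.11, adjusted p = 0.0402). The former was lost without either Hh-CM sample (up to 0.0604) and the latter without any 1 of the 8 libraries (up to 0.176). Aldoc, the aldolase of brain, did not exceed 0.281 FPKM.

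Phosphofructokinase, the main control point of the pathway, is encoded by Pfkl, Pfkm and Pfkp. Pfkl was the most abundant of the 3, at 52.6 to 63.8 FPKM, with Pfkm at 28.8 to 36.1 and Pfkp at 5.09 to 7.03. Pfkl was higher in Esrrb+Hh-CM than in Hh-CM (log2 0.22, limma adjusted p = 0.0216) and than in Esrrb (0.22, adjusted p = 0.0161). The former was lost after rescaling (adjusted p = 0.072) and without either Hh-CM sample or Esrrb+Hh-CM 1 (up to 0.109), and the latter without either Esrrb sample (up to 0.0794). Pfkm, Pfkp and the triose phosphate isomerase gene Tpi1 passed in no comparison.

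In the lower part of the pathway, which yields ATP, the estimates of Gapdh for Hh-CM had opposite signs in the lines. So had those of Pgk1 (log2 -0.13 and 0.21), Pfkl (-0.16 and 0.22) and other enzymes, without and with the Esrrb label. Those of Hk2, Gpi1, Aldoa, Pgam1 and Eno2 lay below 0 in both lines, and those of Pfkm above 0. Gapdh encodes glyceraldehyde-3-phosphate dehydrogenase and also served as the reference gene of the qPCR of the study. It was at 1842 and 1886 FPKM in Control, 1652 and 1667 in Hh-CM, 1505 and 1538 in Esrrb, and 1977 and 1856 in Esrrb+Hh-CM. The samples of Control and Esrrb+Hh-CM overlapped, those of Hh-CM and Esrrb lay below both, and no Esrrb sample reached Hh-CM. In limma the log2 difference from Control was -0.17 in Hh-CM (SE 0.041, adjusted p = 0.0418), -0.29 in Esrrb (adjusted p = 0.00895) and 0.04 in Esrrb+Hh-CM (adjusted p = 0.499, -0.09 after rescaling). Esrrb+Hh-CM lay above Hh-CM by 0.21 (adjusted p = 0.0223, 0.0774 after rescaling) and above Esrrb by 0.33 (adjusted p = 0.00289). The response to Hh-CM thus differed by 0.50 log2 units between the lines (SE 0.058, adjusted p = 0.0244), and this was the only one of the 32 genes for which that difference passed, against 1.35% of all genes.

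The Gapdh values carry a further limit, which some other genes share. In 7 of 8 samples, all but Esrrb+Hh-CM 1, the deposited value lay above the upper bound deposited beside it, by a similar proportion: 1842 FPKM with bounds of 1525 to 1574 in Control 1, and 1977 with bounds of 1975 to 2036 in Esrrb+Hh-CM 1. With the middle of these bounds in place of the values, the difference in response was 0.62 (adjusted p = 0.191). Of the other Gapdh calls, that of Esrrb+Hh-CM against Esrrb kept an adjusted p under the threshold, at 0.0472, and those of Hh-CM and Esrrb against Control did not (0.469 and 0.179), nor did that of Esrrb+Hh-CM against Hh-CM (0.13). Such values outside their own bounds occurred in 34 of the 304 values of the 38 genes, in 10 genes, and in 5.26% to 7.74% of the genes at 1 FPKM or more in each sample. After Gapdh they were most frequent in Pgam1 (6 samples), Bnip3 (5), Gpi1 (4), Adm (4) and Pgk1 (3), whose results carry the same limit. Of the Gapdh calls on the deposited values, the difference in response and the fall in Hh-CM were each lost without any 1 of the Control, Hh-CM or Esrrb samples. The fall in Esrrb was lost without Control 2 (0.0511) or Esrrb 1 (0.0595), and the difference from Hh-CM without Hh-CM 1 (0.102), Hh-CM 2 (0.076) or Esrrb+Hh-CM 1 (0.0537).

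Pgk1, which encodes the kinase of the first ATP-yielding step, fell in Esrrb against Control (log2 -0.30, limma adjusted p = 0.0151) and was higher in Esrrb+Hh-CM than in Esrrb (0.21, adjusted p = 0.0322, and 0.14 with 0.0844 after rescaling). The former was lost without any of the Control or Esrrb samples (up to 0.0759) and the latter without any of these or Esrrb+Hh-CM 1 (up to 0.138). Eno2, the enolase of neurons, fell in Esrrb+Hh-CM against Control (-0.41, adjusted p = 0.00901), and Eno1, the widespread form, passed in no comparison, nor did the mutase gene Pgam1 and the pyruvate kinase gene Pkm2. Eno2 lay at 24.7 to 35.5 FPKM against 514 to 592 for Eno1.

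**Figure D3:**
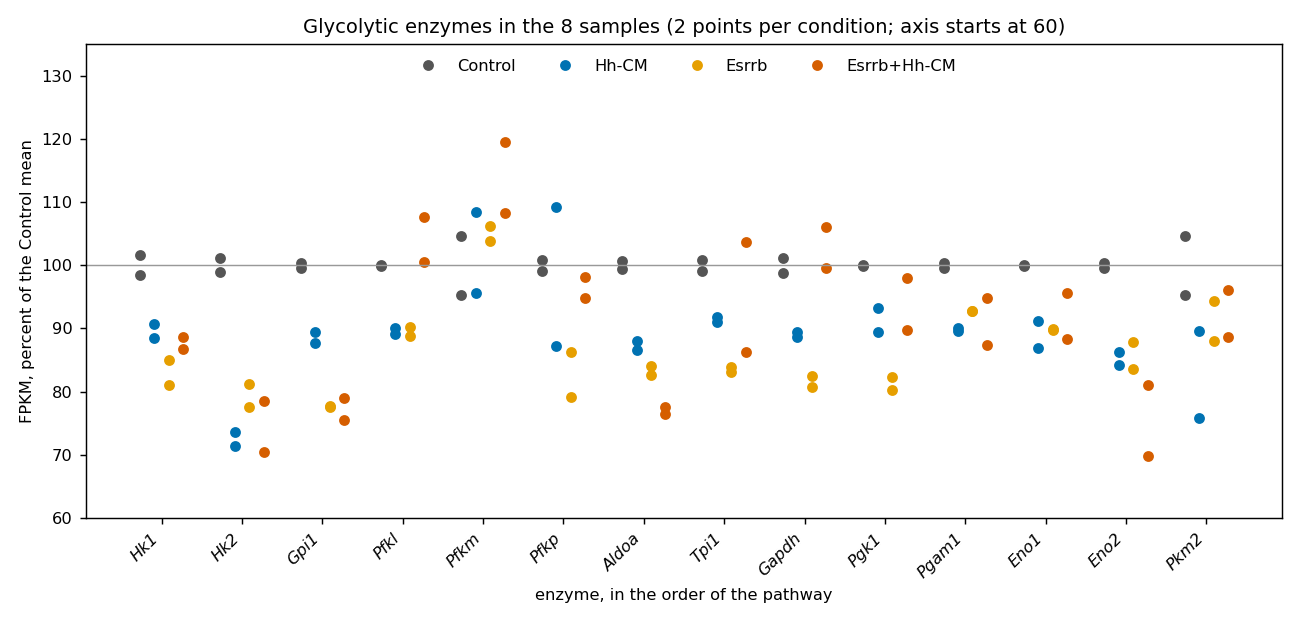
FPKM of the 14 tested glycolytic enzymes in each sample as a percentage of the mean of the 2 Control samples (vertical axis, starting at 60), in the order of the pathway, with 2 points per condition. The points of Hh-CM and Esrrb lie mostly under the line at 100, and those of Esrrb+Hh-CM range from 69.8 to 120.

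Beyond pyruvate, Ldha, which encodes the lactate dehydrogenase subunit favoured in glycolytic tissues, was higher in Esrrb+Hh-CM than in Hh-CM (log2 0.25, limma adjusted p = 0.0142), a call lost without either Hh-CM sample (up to 0.0756). No other comparison of Ldha passed. Pdk1, which encodes a kinase that switches off pyruvate dehydrogenase, stayed between 36.0 and 41.5 FPKM and passed in none before rescaling. Slc16a3, the gene of the lactate exporter MCT4, did not exceed 0.806 FPKM.

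Hif1a, which encodes the oxygen-regulated subunit of HIF-1, was lower with Hh-CM in both lines. It was at 130 and 127 FPKM in Control, 86.8 and 89.6 in Hh-CM, 154 and 149 in Esrrb, and 101 and 93.6 in Esrrb+Hh-CM. No samples of different conditions overlapped, and the Esrrb samples were highest. Hh-CM lowered it by 31.2% in the line with the empty vector (log2 -0.54, SE 0.049, limma adjusted p = 0.00143) and by 0.63 log2 units in the line labelled Esrrb (adjusted p = 0.000487). These responses differed by -0.09 (adjusted p = 0.534). Esrrb+Hh-CM against Hh-CM gave 0.14 (adjusted p = 0.0925, and 0.0443 without Esrrb+Hh-CM 2). Esrrb+Hh-CM lay below Control by 0.40 log2 units (adjusted p = 0.00208). The rise in Esrrb over Control (0.24, adjusted p = 0.0276) was lost after rescaling (adjusted p = 0.0542) and without any 1 of the Control, Esrrb or Hh-CM samples (0.0502 to 0.119).

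Epas1, which encodes the related subunit HIF-2 alpha, did not exceed 0.294 FPKM. Egln1, the main oxygen-sensing hydroxylase, lay at 29.4 to 34.8 FPKM and passed in no comparison. Egln3, a hydroxylase that is itself induced by HIF, was at 8.76 and 9.92 FPKM in Control, 7.57 and 9.15 in Hh-CM, 10.9 and 9.83 in Esrrb, and 6.80 and 6.77 in Esrrb+Hh-CM. Only Esrrb+Hh-CM lay apart, below every other sample, while Control overlapped with Hh-CM and with Esrrb. In limma it was lower there than in Control (log2 -0.45, SE 0.11, adjusted p = 0.0272) and than in Esrrb (-0.60, adjusted p = 0.0142), and the difference from Hh-CM was -0.29 (adjusted p = 0.132). The first call was lost without Control 2 (0.122) or either Esrrb+Hh-CM sample (0.0889 and 0.0903), and the second without Esrrb 1 (0.075) or either Esrrb+Hh-CM sample (0.0576 and 0.0581). The difference in response between the lines was -0.44 (adjusted p = 0.234).

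Among the 10 response genes that could be tested, 1 rose and 3 fell in Hh-CM, 0 rose and 3 fell in the libraries labelled Esrrb, and 2 rose and 6 fell in Esrrb+Hh-CM, each against Control. The shares of all genes were 10.5% and 7.52%, 10.2% and 6.15%, and 23% and 12% in the same order. Vegfa, which encodes the main growth factor of blood vessels, rose only in comparisons with Esrrb+Hh-CM. It was at 47.3 and 48.7 FPKM in Control, 50.6 and 53.4 in Hh-CM, 48.4 and 47.8 in Esrrb, and 73.3 and 67.3 in Esrrb+Hh-CM. The last condition lay above all other samples, and Control and Esrrb overlapped. Esrrb+Hh-CM was 1.46-fold above Control (log2 0.55, SE 0.053, limma adjusted p = 0.00089), and also above Hh-CM (0.43, adjusted p = 0.00566) and Esrrb (0.54, adjusted p = 0.0012). Hh-CM and Esrrb each differed from Control by 0.11 (adjusted p = 0.212) and 0.003 (adjusted p = 0.984). All 3 calls held without any single library (at most 0.0375). The difference in response between the lines was 0.43 log2 units and missed the threshold (adjusted p = 0.0623), which it passed without Esrrb+Hh-CM 2 (0.0481).

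Ndrg1 and Adm were singled out after their values were seen, because they rose in some comparisons. Ndrg1, a stress-responsive gene induced by hypoxia, had means of 57.8 ± 0.562 FPKM (SD, n = 2) in Control and 71.9 ± 2.07 in Hh-CM, and of 58.4 ± 0.974 in Esrrb and 79.6 ± 2.79 in Esrrb+Hh-CM. It rose with Hh-CM in the line with the empty vector (log2 0.31, SE 0.041, limma adjusted p = 0.00519) and in that labelled Esrrb (0.45, adjusted p = 0.000942), and these calls held without any single library. Adm, which encodes the vasodilator peptide adrenomedullin, had means of 46.7 ± 0.556, 36.0 ± 0.349, 52.1 ± 2.60 and 50.03 ± 2.32 FPKM in the same order. It fell in Hh-CM against Control (-0.37, SE 0.051, adjusted p = 0.00626) and was higher in Esrrb+Hh-CM than in Hh-CM (0.47, adjusted p = 0.00396). Esrrb+Hh-CM against Esrrb gave -0.06 and did not pass. The difference in response of Adm between the lines was 0.31 and did not pass either (adjusted p = 0.106).

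Ero1l fell in every comparison. It encodes an oxidase of the endoplasmic reticulum that supplies disulfide bonds and is induced by HIF. Its values were 44.9 and 47.0 FPKM in Control, 30.6 and 30.1 in Hh-CM, 35.6 and 30.5 in Esrrb, and 24.9 and 23.2 in Esrrb+Hh-CM. Control was highest and Esrrb+Hh-CM lowest without overlap, and Esrrb overlapped with Hh-CM. In limma it fell by 0.59 log2 units in Hh-CM (SE 0.082, adjusted p = 0.00631), by 0.48 in Esrrb (adjusted p = 0.0169) and by 0.93 in Esrrb+Hh-CM (adjusted p = 0.000599), which is 47.6% lower than Control. Esrrb+Hh-CM lay below Hh-CM by 0.34 (adjusted p = 0.0403) and below Esrrb by 0.45 (adjusted p = 0.0122). The fall in Esrrb was lost without Control 1 (0.0644) or Control 2 (0.0818), and that from Esrrb to Esrrb+Hh-CM without Esrrb+Hh-CM 2 (0.0575). The difference from Hh-CM was lost without any 1 of the Control, Hh-CM and Esrrb+Hh-CM samples (0.0671 to 0.157).

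Ddit4, a stress gene whose product restrains mTORC1, fell against Control in all 3 conditions. It was at 27.9 and 26.7 FPKM in Control, 16.7 and 17.8 in Hh-CM, 20.7 and 20.2 in Esrrb, and 18.3 and 16.7 in Esrrb+Hh-CM. Control lay above all other samples, and Hh-CM overlapped with Esrrb+Hh-CM. Against Control it fell by 0.66 log2 units in Hh-CM (SE 0.062, limma adjusted p = 0.00172), by 0.41 in Esrrb (adjusted p = 0.0113) and by 0.64 in Esrrb+Hh-CM (adjusted p = 0.000906). The call in Esrrb was lost without Control 1 (0.0657), Esrrb 1 (0.051) or Esrrb 2 (0.0596). Esrrb+Hh-CM against Esrrb gave -0.22 and passed only in some other settings, such as rescaled samples (-0.29, adjusted p = 0.0193) or without Esrrb+Hh-CM 1 (0.0415). The difference in response between the lines was 0.43 (adjusted p = 0.0839).

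Of the other response genes, Bnip3 and Bnip3l, which mark mitochondria for removal, fell in Esrrb+Hh-CM against Control, by 0.40 (limma adjusted p = 0.0131) and 0.30 log2 units (adjusted p = 0.046). Bnip3 was lost without either Control sample (up to 0.0597). Bnip3l was lost in 7 of 8 such fits, all but that without Control 2, and reached 0.172 without Esrrb+Hh-CM 2. In Control 1 its row runs well past the gene, and without that sample the difference was -0.18 (adjusted p = 0.15). Mxi1, a partner of Max that opposes Myc, fell in Esrrb (-0.27, adjusted p = 0.0225, lost without any of the Control and Esrrb samples, up to 0.105) and in Esrrb+Hh-CM (-0.26, adjusted p = 0.0113, lost without Control 2, 0.0634). Kdm3a, a histone demethylase, fell in Esrrb+Hh-CM against Control (-0.26, adjusted p = 0.00949, lost without Control 2, 0.054) and against Esrrb (-0.39, adjusted p = 0.00262). Higd1a, a small mitochondrial protein gene, lay at 23.0 to 29.4 FPKM and passed in no comparison.

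The remaining response genes had values of 0, and whether these mean absence of the transcript was not tested. Ankrd37, a small ankyrin-repeat gene and HIF target, was at 8.21 and 7.48 FPKM in Control and listed at 0 in the other 6 samples. It lies on chromosome 8 of mm9 at 47082256 to 47085221, and a neighbouring row that overlaps 55 bases of it was at 31.8 to 40.6 FPKM in all samples. That row was at 33.6 and 31.8 FPKM in Control, where Ankrd37 also had a value. Car9, which encodes the cell-surface carbonic anhydrase IX, was at 1.97 and 0 FPKM in Control, 2.18 and 0 in Hh-CM, and 0 in the other 4 samples. It lies on chromosome 4 at 43519838 to 43526601. In 5 of the 6 samples at 0 another row covers 3501 to 4754 of the 6764 bases of this gene, with 51.1 to 71.9 FPKM. No fold is given for either gene. Of all tested genes, 92 (0.894%) were likewise at 0 in both samples of a condition.

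Whether the cells answered Hh-CM differently with and without the Esrrb label was tested as the difference between the responses. Apart from Gapdh, no member passed, and Pfkl (0.37, limma adjusted p = 0.0542) and Vegfa came nearest. The estimates lay above 0 for 25 of the 32 genes and for all 14 glycolytic enzymes, whose median was 0.24 log2 units, while all genes had a median of 0.0008. Of all genes, 49.9% had an estimate below 0. The 3 genes of the HIF system lay below 0. Genes share the same 8 samples, so that this count is a description and not a test.

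**Figure D4:**
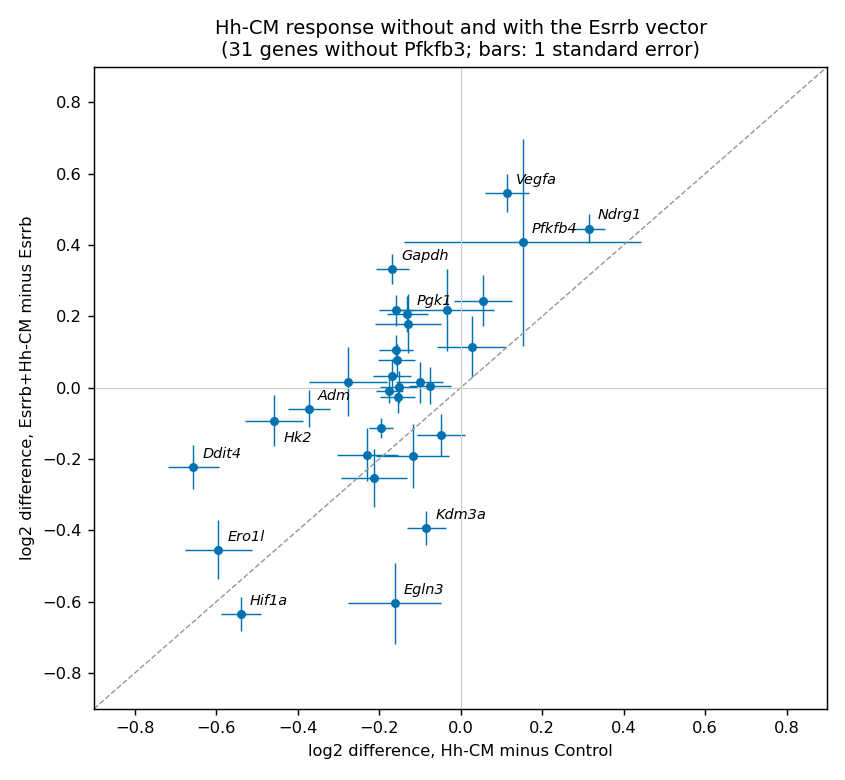
Log2 response to Hh-CM in the line with the empty vector (horizontal) and in the line labelled Esrrb (vertical) for 31 tested genes, on the log2(FPKM + 0.1) scale, with bars of 1 standard error; Pfkfb3 (2.27 and 1.96) lies outside the axes. All enzymes lie above the dashed line of equal response, Gapdh farthest (-0.17 and 0.33), and Hif1a lies near it (-0.54 and -0.63).

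Other genes of the same pathways were counted whole from lists of their names. Of 17 tested genes of glycolysis and pyruvate handling that are not members, 3 rose and 3 fell in Hh-CM, 3 rose and 2 fell in Esrrb, and 3 rose and 3 fell in Esrrb+Hh-CM against Control. Of 12 tested genes of the pentose phosphate and glycogen pathways, 2 rose and 3 fell, 1 rose and 3 fell, and 2 rose and 2 fell in the same order. Of 21 further tested genes of the HIF pathway, 3 rose and 5 fell, 2 rose and 4 fell, and 5 rose and 10 fell. Over all genes, 10.5% rose and 7.52% fell in Hh-CM, 10.2% and 6.15% in Esrrb, and 23% and 12% in Esrrb+Hh-CM. Pdk4, another pyruvate dehydrogenase kinase, was at 72.1 and 74.0 FPKM in Control, 33.9 and 33.5 in Hh-CM, 65.6 and 66.2 in Esrrb, and 19.3 and 20.1 in Esrrb+Hh-CM. It fell with Hh-CM by 1.11 log2 units in the line with the empty vector (limma adjusted p = 4.63e-05) and by 1.74 in the line labelled Esrrb (adjusted p = 1.08e-05), and these responses differed by -0.62 (adjusted p = 0.00842). Angptl4, an inhibitor of lipoprotein lipase and a HIF target, was at 199 and 196, 53.2 and 45.4, 197 and 204, and 31.01 and 28.3 FPKM in that order. It fell with Hh-CM by 2.00 log2 units (adjusted p = 0.000106) and by 2.76 (adjusted p = 3.04e-05), a difference of -0.75 (adjusted p = 0.0538). Tfrc (log2 1.10) and Bhlhe41 (1.13) also passed both thresholds, each higher in Esrrb+Hh-CM than in Esrrb, with adjusted p of 0.000309 and 0.00262.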

How the data were processed

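RNA from 8 samples was sequenced by the authors as TruSeq Stranded mRNA libraries on an Illumina HiSeq in 1 lane. Reads were filtered with the FASTX-Toolkit, aligned to mm9 with Bowtie2 and TopHat2 and assembled with Cufflinks, separately for each sample. The submitters' processing notes name mm9, Cufflinks and Cuffdiff. Whether counting used strand is not given in the sources used here. The deposited FPKM values and their lower and upper bounds, with a status, are listed per assembled or reference locus without gene symbols. Read counts were not used here.

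From these files, each row was given to the GENCODE vM1 (mm9) gene it overlapped best, with a shared length of at least 0.5 of the combined length, and each gene took its best row. For the 38 genes no minimum was set, which matters for Pfkfb3 and for Bnip3l in Control 1. Rows of 1 FPKM or more found a gene in 72.6% to 77.1% of cases. Genes with at least 1 FPKM in 2 or more samples (10287) entered limma 3.58.1 (R 4.3.3) with a variance trend on log2(FPKM + 0.1), with 4 condition means and no covariate, and p-values were adjusted by Benjamini-Hochberg. The test was also run on simulated data with known changes. Tables were made in Python 3.11.15 with pandas 2.3.3 and numpy 2.4.6.

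Conditions were taken from the sample labels. The comparisons were Hh-CM, Esrrb and Esrrb+Hh-CM against Control, Esrrb+Hh-CM against Hh-CM and against Esrrb, and the difference between the responses to Hh-CM. Values of every sample are given for genes that passed with a log2 difference of at least 0.5, for genes at 0 in both samples of a condition, and for Pfkfb3 and Gapdh. Further genes of the pathways are named where they passed both thresholds, apart from results not reported here. The genes, lists and tests were chosen with earlier results of these data known. In all, 19 alternatives were planned and 1, the middle of the deposited bounds, was added after the data were seen. The depth of a sample was read from low FPKM values only in relation to Control 1, so that no counting interval is given.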

Additional observations from a re-analysis of the deposited data

Results flagged for a closer look

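The response of Gapdh to Hh-CM differed between the line with the empty vector and the line labelled Esrrb by 0.50 log2 units in limma (adjusted p = 0.0244). In the former both Hh-CM samples lay below both Control samples, and in the latter both Esrrb+Hh-CM samples lay above both Esrrb samples. The value in 7 of 8 samples was outside the bounds deposited with it, and the part of this in the difference was not tested beyond the fit on the middle of the bounds, where the difference was 0.62 (adjusted p = 0.191).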

How the results depend on the processing

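Over the 5 comparisons and the difference in response, 734 values of the single genes printed for every sample kept both direction and side of the threshold, 70 lost and 7 gained the threshold, and 10 turned in sign. The calls of Pfkfb3, Vegfa and Hif1a other than that of Hif1a in Esrrb were kept wherever the gene was in the fit. Rescaling to equal medians raised the members that passed in Hh-CM against Control from 10 to 16 and the differentially expressed members in Esrrb+Hh-CM against Control from 1 to 2 (Ero1l at -1.06). Without the FPKM filter, 6 in place of 11 passed in Esrrb against Control, 7 in place of 11 in Esrrb+Hh-CM against Esrrb, and 0 in place of 1 for the difference in response. With only the compared groups in the fit, 3 in place of 9 passed in Esrrb+Hh-CM against Hh-CM and 7 in Esrrb+Hh-CM against Esrrb. With the middle of the deposited bounds, chosen after seeing the data, these counts were 3 in Esrrb+Hh-CM against Hh-CM and 0 for the difference in response. That count was also 0 without the variance trend and 3 with genes that had the same row in all samples (25 members). With a minimum overlap of 0.8, 0 members were differentially expressed in all 5 comparisons, because Pfkfb3 was not in that fit.

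Over all tested genes, deviations of same-numbered samples from their condition means correlated between -0.06 and 0.062. Correlations this weak do not show whether same-numbered samples were prepared together, because noise of low genes also weakens them. With the replicate number as a block, 0 in place of 1 member passed for the difference in response. Over all genes, 0.262% then passed with a difference above 0 and 0.272% below 0, against 0.758% and 0.593% without the block. Under the block, Ero1l in Esrrb+Hh-CM against Hh-CM (adjusted p = 0.0514), Gapdh in Hh-CM against Control (0.0676), Hk2 in Esrrb against Control (0.056) and Aldoa in Esrrb+Hh-CM against Esrrb (0.0588) missed the threshold. Bnip3 (0.0455) and Higd1a (0.037) in Esrrb+Hh-CM against Esrrb and Kdm3a in Esrrb+Hh-CM against Hh-CM (0.0472) passed it.

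Leaving out 1 library at a time gave 6 to 16 passing members in Hh-CM against Control (6 without Control 2 or Hh-CM 1, 16 without either Esrrb+Hh-CM sample), 4 to 16 in Esrrb against Control (4 without either Control sample, 5 without either Esrrb sample), 11 to 18 in Esrrb+Hh-CM against Control, 3 to 10 in Esrrb+Hh-CM against Hh-CM (3 without either Hh-CM sample), 7 to 11 in Esrrb+Hh-CM against Esrrb (7 without Esrrb 1) and 0 to 6 for the difference in response (0 without any 1 of the Control, Hh-CM and Esrrb samples, 6 without Esrrb+Hh-CM 2). Pfkfb3 remained the 1 differentially expressed member throughout. A condition left with 1 sample is assumed to vary like the others. Shares of all genes are given only for rescaling and the block. The moves in the other settings therefore cannot be called particular to the members.

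Some signs turned. Gapdh in Esrrb+Hh-CM against Control was -0.0876 after rescaling and, without 1 library, between -0.0063 (Esrrb+Hh-CM 1) and 0.0853. The difference in response of Pfkfb3 was 0.0364 with a pseudocount of 1. Ddit4 in Esrrb+Hh-CM against Hh-CM was -0.0641 after rescaling, -0.0268 without Hh-CM 1 and, over all such fits, between -0.0451 (without Esrrb+Hh-CM 1) and 0.0842. Vegfa in Esrrb against Control was -0.0611 after rescaling, -3.52e-05 with the middle of the bounds, -0.0051 without Esrrb 1 and, over all such fits, between -0.0194 (without Control 1) and 0.0245. The causes were not tested. With 2 samples per condition and no read counts, the counting error of low genes such as Pfkfb4 is not known.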
